A study of Homo sapiens with 24 samples.

Results

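The comparison asks how much of the open chromatin of hormone-fed breast cancer cells comes back within 1 h when estradiol is given to hormone-starved cells. It sets 4 libraries of estradiol-treated starved cells against 4 libraries of vehicle-treated cells in complete medium, 8 of the 24 libraries of the series, over all 189403 deposited peaks, here called sites. The assay, ATAC-seq, marks open DNA by where the Tn5 transposase can insert sequencing adapters. The cells were T47D, an established luminal breast cancer line obtained from ATCC that expresses the estrogen receptor. Estradiol-treated cells were plated at 330000 cells, kept for 3 days in RPMI 1640 without phenol red and with 10% charcoal-stripped serum, and given 1 nM beta estradiol for 1 h; the vehicle of the estradiol is not given in the sources used here. Cells in complete medium were plated at 500000 cells, kept for 1 day in RPMI 1640 with 10% untreated serum, and given 0.1% DMSO for 1 h. A further group of 4 libraries, starved cells given 0.1% DMSO for 1 h, was handled like the estradiol-treated group and served to sort the sites. The estradiol-treated and complete-medium groups therefore differ in medium, serum, days of culture and plating density as well as in added hormone, and these cannot be told apart. Cells plated at 500000 and kept for 1 day in complete medium were also given 100 nM raloxifene, tamoxifen or fulvestrant for 1 h, with 4 libraries each. Raloxifene and tamoxifen libraries served as another way to choose sites, and fulvestrant libraries entered only the shared fit. Replicates 3 and 4 of the complete-medium vehicle name fulvestrant in their treatment label and DMSO in title and description; they were grouped by title, and the main counts are also given without them. Whether replicates come from separate cultures is not in the labels, so the error behind a p-value is library-to-library spread, which may be technical.

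Estradiol enters the cell, binds the estrogen receptor in the nucleus, and the receptor dimer binds DNA at palindromic response elements or single arms of them, often where the pioneer factor FOXA1 already holds chromatin open. Serum supplies estrogens, progestins, glucocorticoids, androgens, retinoids and other signals, and charcoal removes most small lipophilic molecules from it. Phenol red is a weak estrogen and is left out of starvation media for that reason. T47D cells are known for high progesterone receptor and also carry androgen and retinoic acid receptors.

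Of the 189403 sites, 156745 (82.8%) passed the filter on low counts and were tested; sites were 200 to 958 bp wide, with a median of 226 bp. Total counts in peaks were 7938382 to 12140005 in estradiol-treated, 7117770 to 10225935 in complete-medium and 2422981 to 11336954 in starved vehicle libraries, the lowest being starved vehicle replicate 3. Levels are CPM, counts scaled to each library's TMM-adjusted total, and differences are log2 fold changes of 1 edgeR quasi-likelihood fit over all 24 libraries, with p-values adjusted by Benjamini-Hochberg over all tested sites and called below 0.05. Because libraries are scaled to one another, a change common to all sites cannot be seen. In bulk libraries, a change in the share of cells in which a site is open and a change in how open it is in each cell cannot be told apart. Having a tested site within 5 kb did not separate the marker lists, since all 18 luminal identity genes, all 10 basal and mesenchymal genes and 7 of 8 blood cell genes (not HBB) had one. The median over genes of the highest such site was 34.8 CPM with estradiol, 36.2 CPM in complete medium and 35 CPM in starved vehicle for luminal genes, among them ESR1, GATA3 and FOXA1. It was 7.05, 7.86 and 7.33 CPM for basal and mesenchymal genes and 14.9, 11.2 and 14.1 CPM for blood cell genes, in the same order of groups. The shared fit also holds fulvestrant replicate 4, with 434598 counts. Without it and starved vehicle replicate 3, 14898 sites were higher and 12485 lower with estradiol than in complete medium. Neither library belongs to the groups of that contrast, so they reach it only through the shared fit.

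Sites were sorted by 3 contrasts of the fit. A site of the complete-medium state is one called higher in complete medium than in starved vehicle. It counts as restored when estradiol raised it over starved vehicle, it was not called against complete medium, and the 95% interval of its difference from complete medium lay within 2-fold. It counts as partly restored when it was raised but still called lower than complete medium, and as not restored when it was not called raised and was called lower, which does not show that it did not rise. A site called lower in complete medium than in starved vehicle counts as kept open when it was not called lowered by estradiol and was called higher than complete medium. This does not show that it did not fall. Such sites count as closed or partly closed by the mirror rules. Overshoot means raised by estradiol and called higher than complete medium. The choice of these sites shares the complete-medium or the estradiol libraries with the comparison itself, so the class counts describe the fit and are not independent tests of it.

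Promoter sequence was at hand for a small share of the sites, and 5 windows are shown because their sites stand for the different outcomes and each holds a motif discussed below. The windows are RefSeq sequence of GRCh38.p14 from 250 bases before to 50 bases after a gene start, read on the gene's strand. Capitals mark an estrogen response element (GGTCA and TGACC 3 bases apart), its half-site (AGGTCA), an AP-1 site (TGANTCA) or a TEAD site (GGAATG), on either strand. The first 3 windows were chosen after their values were seen; the last 2 belong to sites named by the rule stated under the processing. AGR3, a relative of the secreted estrogen-induced protein AGR2, had a restored site at its start (chr7:16881934-16882233, minus strand). LINC02130, a long noncoding RNA, had a restored site with a full element (chr16:14370217-14370516, minus strand). LINC01016, a long noncoding RNA, had an overshoot site (chr6:33896858-33897157, minus strand). PDZK1, a scaffold protein and estrogen-induced gene, had a site that was not restored (chr1:145707351-145707650, minus strand). RARB, a retinoic acid receptor, had a site kept open (chr3:25458060-25458359, plus strand).
AGR3: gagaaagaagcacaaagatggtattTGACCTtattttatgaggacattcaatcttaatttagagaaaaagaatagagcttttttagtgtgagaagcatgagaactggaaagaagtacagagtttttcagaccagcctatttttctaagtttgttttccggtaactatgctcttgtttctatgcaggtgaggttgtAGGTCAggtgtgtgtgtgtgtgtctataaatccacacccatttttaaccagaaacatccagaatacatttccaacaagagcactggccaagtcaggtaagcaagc
LINC02130: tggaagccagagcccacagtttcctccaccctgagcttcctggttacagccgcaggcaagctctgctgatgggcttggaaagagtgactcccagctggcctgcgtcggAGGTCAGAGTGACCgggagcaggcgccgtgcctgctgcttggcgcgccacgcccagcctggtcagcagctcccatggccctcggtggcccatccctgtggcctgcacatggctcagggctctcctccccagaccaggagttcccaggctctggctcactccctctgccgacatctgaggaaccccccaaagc
LINC01016: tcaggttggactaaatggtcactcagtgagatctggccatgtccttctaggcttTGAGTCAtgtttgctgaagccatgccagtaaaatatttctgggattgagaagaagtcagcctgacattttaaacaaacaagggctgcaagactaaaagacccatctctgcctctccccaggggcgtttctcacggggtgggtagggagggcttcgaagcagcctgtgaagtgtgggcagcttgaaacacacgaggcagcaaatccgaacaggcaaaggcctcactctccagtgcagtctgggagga
PDZK1: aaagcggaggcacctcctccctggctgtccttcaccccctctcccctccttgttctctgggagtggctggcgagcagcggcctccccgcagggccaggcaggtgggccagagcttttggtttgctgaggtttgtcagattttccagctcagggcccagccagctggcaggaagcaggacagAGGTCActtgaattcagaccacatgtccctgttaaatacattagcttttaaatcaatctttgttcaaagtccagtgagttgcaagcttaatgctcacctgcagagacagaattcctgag
RARB: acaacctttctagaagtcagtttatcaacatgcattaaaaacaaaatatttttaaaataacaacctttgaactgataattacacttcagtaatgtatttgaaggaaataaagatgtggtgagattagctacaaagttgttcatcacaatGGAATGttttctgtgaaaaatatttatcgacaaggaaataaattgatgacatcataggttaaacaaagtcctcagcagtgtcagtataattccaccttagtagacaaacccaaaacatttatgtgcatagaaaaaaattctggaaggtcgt

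The AGR3 site had 9.22, 7.33, 9.02 and 7.96 CPM with estradiol, 10.1, 9.57, 8.29 and 9.04 CPM in complete medium and 4.3, 5.5, 3.94 and 4.74 CPM in starved vehicle. The LINC02130 site had 27.8, 25.9, 31.0 and 30.2 CPM with estradiol, 34, 27.9, 35.9 and 29.3 CPM in complete medium and 15.3, 13.2, 15.8 and 10.6 CPM in starved vehicle. At both, the estradiol libraries overlapped the complete-medium libraries and lay above every starved one. The LINC01016 site had 11.1, 13.7, 21.2 and 18.4 CPM with estradiol, against 11, 9.31, 10.3 and 9.04 CPM in complete medium and 3.85, 3.18, 7.48 and 4.29 CPM in starved vehicle. It was higher with estradiol than in complete medium by 0.71 on the log2 scale (SE 0.157, edgeR adjusted p = 0.000524), with all 4 estradiol libraries above all 4 complete-medium ones. The PDZK1 site had 1.47, 4.61, 4.34 and 3.54 CPM with estradiol, 13.4, 11.6, 14.2 and 15.6 CPM in complete medium and 3.74, 3.66, 4.33 and 4.38 CPM in starved vehicle. Its log2 difference from complete medium was -1.92 (SE 0.188, edgeR adjusted p = 6.36e-13). The half-site printed for PDZK1 and the first half-site printed for AGR3 lie outside the deposited peaks. The other marked motifs lie within them. The RARB site had 5.28, 5.45, 3.17 and 5.18 CPM with estradiol, 0.956, 1.53, 1.01 and 1.29 CPM in complete medium and 4.3, 6.11, 0.788 and 3.49 CPM in starved vehicle, where only replicate 3, the shallow library, was as low as complete medium.

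After 1 h of estradiol, the chromatin of starved cells still differed from that of cells in complete medium at 26085 sites, 16.6% of those tested. Of these, 14721 sites (9.39% of those tested) were higher with estradiol and 11364 (7.25%) were lower, with median log2 fold changes of 1.10 and -1.0. The difference was at least 2-fold at 8550 of the higher and 5687 of the lower sites. Most differences were those between the media: 74.9% of the higher sites were also higher in starved vehicle than in complete medium, and 65.1% of the lower sites were lower there too; the contrasts share the complete-medium libraries. Complete medium itself was called higher than starved vehicle at 12423 sites (7.93%) and lower at 15542 (9.92%), while estradiol raised 1274 sites (0.813%) and lowered 35 (0.0223%) against starved vehicle, 0.835% in all. Without complete-medium replicates 3 and 4, 8175 sites were higher and 6707 lower with estradiol, with 2 libraries left in that group; 7646 and 5999 of these are among the calls from all libraries. Within replicates 1 and 2 the counts were 10114 higher and 6938 lower, and within replicates 3 and 4 they were 6631 higher and 4015 lower.

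**Figure D1:**
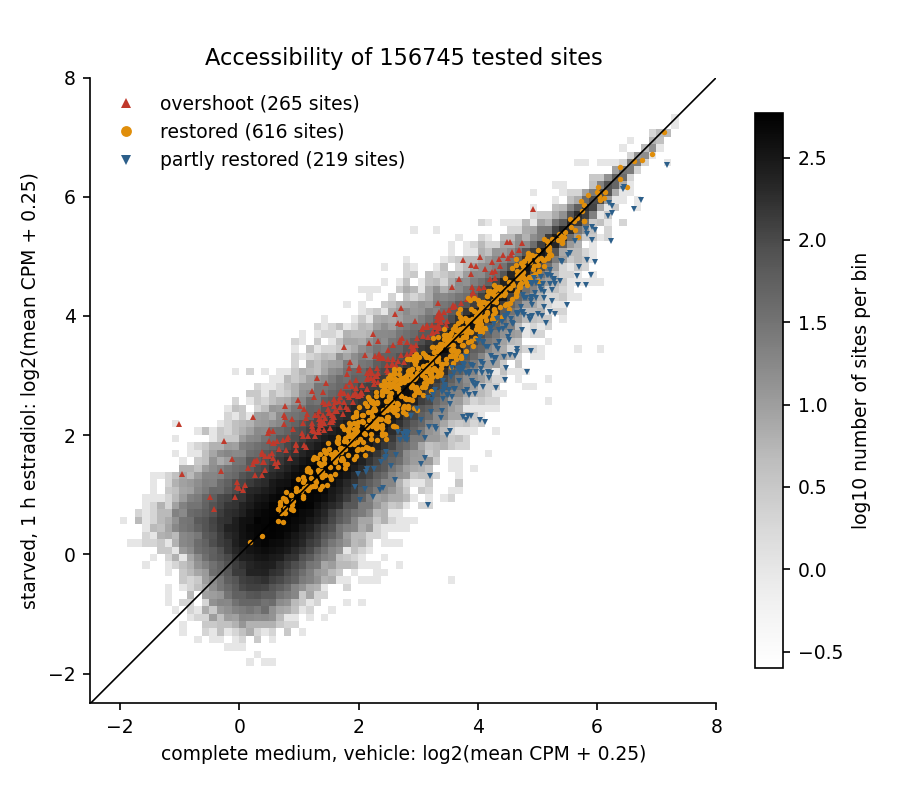
Mean accessibility of all 156745 tested sites with estradiol (y axis) against complete medium (x axis), as log2 of mean CPM plus 0.25, with grey shade for the number of sites per bin and the line of equality. Coloured points are the 265 overshoot, 616 restored and 219 partly restored sites; by their rules they lie above, near and below the line.

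Estradiol brought back a small set of the complete-medium sites in full. Of the 12423 sites higher in complete medium, 1008 (8.11%) were raised by estradiol; 616 of these (61.1%) met the rule for restored, 219 remained lower than complete medium, 79 exceeded it, and at the rest the interval reached beyond 2-fold. The restored sites averaged 13.0 ± 0.536 CPM with estradiol, 13.2 ± 0.282 CPM in complete medium and 6.22 ± 0.243 CPM in starved vehicle (SD over 4 library means). By library these means were 12.4, 12.7, 13.6 and 13.3 CPM with estradiol and 13.6, 13.0, 13.2 and 13.1 CPM in complete medium, so the groups overlapped, and each was above all starved libraries. Partly restored sites averaged 14.6 ± 1.50 CPM with estradiol, 24.5 ± 0.837 CPM in complete medium and 6.69 ± 0.262 CPM in starved vehicle. Their median recovered share, the part of the log2 difference between the vehicles that estradiol covered, was 0.63, against 1.00 at restored sites, which the rules fix in part.

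The site within PGR, the progesterone receptor (chr11:101034171-101034404), had 38.6, 38.5, 36.2 and 41.7 CPM with estradiol, 31.4, 34.2, 34.5 and 36.2 CPM in complete medium and 13.7, 10.0, 14.2 and 13.3 CPM in starved vehicle. Estradiol and complete medium met at 36.2 CPM and differed by 0.18 on the log2 scale (SE 0.111, edgeR adjusted p = 0.278), with a 95% interval of -0.04 to 0.40. PGR was nearest to 2 restored and 5 not restored sites. Those 5 had 0.277 to 2.32 CPM with estradiol, 1.08 to 4.52 CPM in complete medium and 0.171 to 1.21 CPM in starved vehicle. Over all complete-medium sites 4.96% were restored and 57.8% not restored. The site 9.68 kb from TRPC6, a cation channel (chr11:101441750-101442015), had 62.6 ± 5.75 CPM with estradiol, 68.9 ± 2.64 CPM in complete medium and 20.3 ± 2.10 CPM in starved vehicle. Both genes lie on chromosome 11, and TRPC6 was the nearest gene of 4 restored sites. The site within ATXN7L1, a relative of a chromatin coactivator subunit (chr7:105639992-105640243), had 10.8, 11.9, 14.2 and 15 CPM with estradiol, 14.1, 12.2, 14.8 and 9.47 CPM in complete medium and 1.93, 0.855, 1.97 and 2.15 CPM in starved vehicle. Sites within CADM1, a cell adhesion molecule, and 47.2 kb from ZDHHC19, a palmitoyltransferase, differed from complete medium by -0.09 (95% interval -0.30 to 0.12) and 0.02 (-0.23 to 0.27).

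At sites that were partly restored, the rise covered some of the distance. The site within ZBTB16, a zinc finger transcription factor induced by glucocorticoids and progestins (chr11:114179253-114179527), had 6.14, 8.38, 9.44 and 8.21 CPM with estradiol, 22.3, 30.0, 31.0 and 28.4 CPM in complete medium and 3.4, 3.79, 7.88 and 4.38 CPM in starved vehicle. Every estradiol library was below every complete-medium library, by 1.77 on the log2 scale (SE 0.143, edgeR adjusted p = 2.16e-16). The site within RALGAPA2, a subunit of a GTPase-activating complex for Ral (chr20:20441335-20441565), had 16.2 ± 1.46 CPM with estradiol, 39.1 ± 2.50 CPM in complete medium and 4.87 ± 0.929 CPM in starved vehicle. Sites within SGK3, a kinase of the PI3K pathway, within SHANK2, a scaffold protein, and 27 kb from KCTD3 had log2 differences of -1.16, -1.28 and -1.55 from complete medium.

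Most complete-medium sites were not restored. This class held 7184 sites, 57.8% of the 12423 (4439 sites without complete-medium replicates 3 and 4, and 4339 with DESeq2), and at another 4325 (34.8%) the data placed the site in none of the classes. Sites that were not restored averaged 5.21 ± 0.130 CPM with estradiol, 9.03 ± 0.200 CPM in complete medium and 5.05 ± 0.0879 CPM in starved vehicle, and their median recovered share was 0.05. In complete-medium replicates 3 and 4, with the conflicting label, the class averaged 9.16 and 9.04 CPM, against 9.18 and 8.75 CPM in replicates 1 and 2. The class was chosen with all of these libraries, so the levels cannot decide whether the label matters. Over all 12423 sites the median recovered share was 0.24. Computed from the CPM of each of the 4 estradiol libraries, again as a median over sites, it was 0.237, 0.279, 0.275 and 0.306. The starved vehicle libraries helped to choose these sites and are also the baseline of the share. A site low there by sampling alone gets a positive share, so these values do not measure recovery free of the choice. Because the rule reads the complete-medium libraries, the sites were also chosen from raloxifene- and tamoxifen-treated complete-medium libraries against starved vehicle, which share neither the estradiol nor the vehicle libraries with the comparison. Of 15406 sites chosen that way (9.83% of those tested), 45.5% were lower with estradiol than in complete vehicle, against 7.25% of all tested sites, and 612 met the other conditions for restored. Those conditions include a rise over starved vehicle, whose libraries also helped to choose these sites, so the 612 are not free of the choice.

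**Figure D2:**
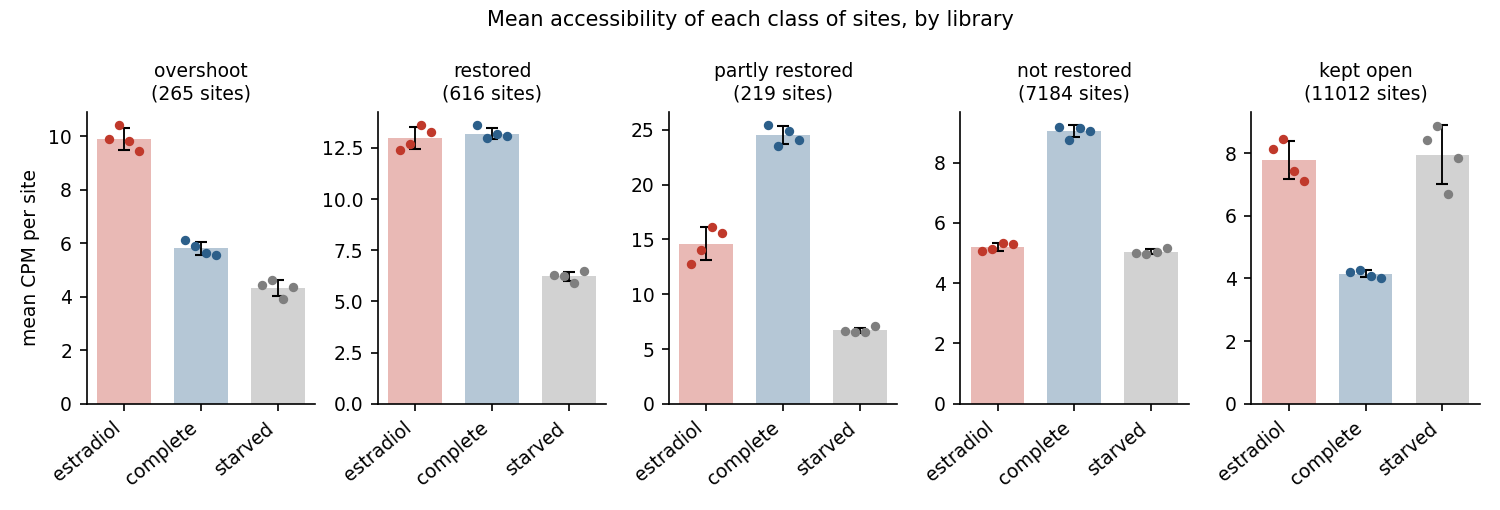
Mean CPM per site of 5 classes of sites in each library of estradiol-treated, complete-medium and starved vehicle cells; bars are means of 4 libraries, error bars SD and points single libraries, with a separate axis per class. Restored sites reach 13.0 CPM with estradiol against 13.2 CPM in complete medium, while sites not restored stay at 5.21 CPM against 9.03 CPM.

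The site with the smallest p-value among those not restored lay within WT1, a zinc finger transcription factor (chr11:32420957-32421415). It had 11.6, 12.6, 10.2 and 9.6 CPM with estradiol, 72.5, 67.9, 67.1 and 67.7 CPM in complete medium and 12.3, 13.7, 10.2 and 8.4 CPM in starved vehicle. Estradiol and starved vehicle overlapped, and both lay far below complete medium, by 2.65 on the log2 scale for estradiol (SE 0.117, edgeR adjusted p = 3.61e-31). The site 43.6 kb from SLCO4A1, an organic anion transporter, had 5.63 ± 1.13 CPM with estradiol, 36.0 ± 3.70 CPM in complete medium and 6.69 ± 2.27 CPM in starved vehicle. The site within SLC2A10, a glucose transporter, had 7.31 ± 0.694, 35.1 ± 2.58 and 7.73 ± 1.35 CPM in the same order of groups. Sites within NDST1, an enzyme of heparan sulfate synthesis, and FER1L6, a ferlin, differed from complete medium by -1.41 (SE 0.110) and -2.07 (SE 0.156). Counted after the values were seen, KCNMA1, a potassium channel, was nearest to the most sites not restored, with 15 of 117 tested sites. It was also nearest to 12 sites kept open and 1 restored. Of all 156745 tested sites, 7184 were not restored, 11012 kept open and 616 restored. GRIK4, a glutamate receptor, had 14 not restored of its 84 sites, and GSE1 had 14 of its 130. SLC25A48, a mitochondrial carrier, had 13 of its 35, and GRHL2, an epithelial transcription factor, 11 of its 47. GSE1 was also the gene nearest to the most restored sites, with 9 of its 130.

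Ranked by fold change, most of the 10 deepest deficits were at sites with little signal outside complete medium. The site within FBN1, which encodes fibrillin (chr15:48483805-48484033), had 1.11, 0.524, 0.501 and 0.379 CPM with estradiol, 5.84, 5.36, 7.58 and 5.6 CPM in complete medium and 0.68, 1.22, 0 and 0.536 CPM in starved vehicle, a log2 difference from complete medium of -3.30 (SE 0.323). The site within CDH1, the epithelial cadherin, had 0.475 ± 0.262 CPM with estradiol, 4.81 ± 1.26 CPM in complete medium and 0.974 ± 0.667 CPM in starved vehicle. Sites at RBFOX1, CALM2, DCD, PDE4A, GFOD1, PHLDB2, SLCO4A1 and RAD51B followed, with log2 differences of -3.01 to -2.68. CALM2, one of the calmodulin genes, and PDE4A, a cyclic AMP phosphodiesterase, belong to second messenger signalling, and RAD51B to recombination repair. At each of these 10 sites all 4 estradiol libraries were below all 4 complete-medium libraries, as the naming rule requires.

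Most sites that were more open in starved vehicle than in complete medium were still called higher than complete medium with estradiol. Of 15542 sites lower in complete medium than in starved vehicle, 11012 (70.9%) were kept open, 12 were closed and 4 partly closed, and 4508 (29%) could not be placed. Sites kept open averaged 7.78 ± 0.621 CPM with estradiol, 4.15 ± 0.113 CPM in complete medium and 7.95 ± 0.933 CPM in starved vehicle. By library the estradiol means were 8.12, 8.46, 7.43 and 7.10 CPM and the starved vehicle means 8.42, 8.85, 6.70 and 7.83 CPM, overlapping each other and above every complete-medium library (4.02 to 4.27 CPM). Over all 15542 sites the median recovered share was 0.13. Computed from the CPM of each estradiol library, again as a median over sites, it was 0.029, -0.045, 0.140 and 0.207 in replicates 1 to 4. The mean of these was 0.083 with an SD of 0.112. Here too the starved vehicle libraries both helped to choose the sites and set the baseline of the share. Of 20792 sites chosen from the raloxifene and tamoxifen libraries (13.3% of those tested), 54.5% were higher with estradiol than in complete vehicle, against 9.39% of all tested sites, and none was lower. Without complete-medium replicates 3 and 4, 6212 sites were kept open.

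The site within TNKS2, which encodes a tankyrase (chr10:91864108-91864353), had 41.0, 47, 41.7 and 46.2 CPM with estradiol, 11.3, 7.02, 10.9 and 10.5 CPM in complete medium and 41.8, 41.8, 28.8 and 45.9 CPM in starved vehicle. It was higher with estradiol than in complete medium by 2.13 on the log2 scale (SE 0.128, edgeR adjusted p = 5.21e-23), and the estradiol and starved libraries overlapped. The site within PAPPA, a protease that cleaves insulin-like growth factor binding proteins, had 20.7 ± 3.24 CPM with estradiol, 3.83 ± 0.786 CPM in complete medium and 20.3 ± 4.78 CPM in starved vehicle. Sites within BCL2A1, an anti-apoptotic gene, and C1QTNF3, a secreted factor, and 10.6 kb from OR5C1, an olfactory receptor gene, had log2 differences of 2.01, 1.70 and 2.26.

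By fold change, the largest excess over complete medium lay within SYT1, a synaptic vesicle protein (chr12:79383014-79383288), with 9.34, 12.3, 5.26 and 6.44 CPM with estradiol, 0.956, 0.51, 0.505 and 0.861 CPM in complete medium and 10.1, 14, 3.94 and 7.87 CPM in starved vehicle. Its log2 difference was 3.51 (SE 0.363, edgeR adjusted p = 1.37e-10), and the starved vehicle covered the same range as estradiol. The other 9 sites of this ranking, nearest to LOC124903575, OR2F2, SLC41A2, SERGEF, NXPH1, PANK3, HSD11B1, CYP2A7 and SGK3, were higher by 3.17 to 2.64. Among them HSD11B1 makes active glucocorticoid from its inactive form, SLC41A2 carries magnesium and PANK3 starts coenzyme A synthesis. None of these 10 was called between estradiol and starved vehicle. SGK3, a gene of the estrogen-induced list, held 2 sites of opposite outcome: chr8:66747988-66748197, with 11.2 ± 2.34 CPM with estradiol, 1.84 ± 0.641 CPM in complete medium and 10.8 ± 2.09 CPM in starved vehicle, and chr8:66713944-66714185, partly restored, with 22.6 ± 4.21, 51.0 ± 1.28 and 8.01 ± 2.26 CPM. Genes nearest to the most sites kept open, counted after the values were seen, were DLG2, MACROD2 and RAD51B with 17 of 139, 68 and 130 tested sites, and MECOM, a transcription factor gene, with 15 of 86; of all tested sites 7.03% were kept open.

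Closure back to the complete-medium level was rare. The site 9.20 kb from TNS3, a tensin (chr7:47591645-47591936), had 13.6, 17.1, 17.2 and 16.4 CPM with estradiol, 17.0, 16.8, 20.8 and 18.9 CPM in complete medium and 18.0, 28.1, 23.2 and 27.9 CPM in starved vehicle, and the rule counts it as closed. Sites within KLHDC1, NELL1 and SMARCA1, a chromatin remodelling ATPase, also counted as closed, with log2 differences from complete medium of -0.32, -0.14 and -0.06. ADGRV1, an adhesion receptor gene, held a partly closed site with 8.02 ± 1.50 CPM with estradiol, 1.59 ± 0.767 CPM in complete medium and 12 ± 3.58 CPM in starved vehicle. A site within ELOVL5, a fatty acid elongase, was partly closed at 3.96 ± 0.422, 1.86 ± 0.465 and 7.13 ± 1.39 CPM, and its call was lost without complete-medium replicates 3 and 4. Only 4 sites undershot complete medium, 1 of them within TCF7L1, a WNT pathway transcription factor, with 12.1 ± 0.569 CPM with estradiol and 17.1 ± 1.93 CPM in complete medium, and its call was lost without those replicates and without complete-medium replicate 3 alone (log2 difference -0.41). With the replicate number as a block there were 25 closed, 12 partly closed and 14 undershooting sites, and 74 sites lowered against starved vehicle. Leaving out estradiol replicate 2 gave 21 closed, 7 partly closed and 9 undershooting sites, and leaving out estradiol replicate 3 gave 4 closed and 8 undershooting.

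At 265 sites estradiol took starved cells beyond complete medium. These overshoot sites averaged 9.90 ± 0.415 CPM with estradiol, 5.81 ± 0.247 CPM in complete medium and 4.33 ± 0.305 CPM in starved vehicle, a median log2 excess over complete medium of 0.88. They were 20.8% of the sites estradiol raised but 1.8% of all sites higher with estradiol than in complete medium. In 180 of them complete medium and starved vehicle were not called different, in 79 complete medium was higher than starved vehicle, and in 6 it was lower. Without complete-medium replicates 3 and 4 there were 142.

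The site within SIAH2, an estrogen-induced ubiquitin ligase (chr3:150744960-150745360), had 8.97, 12.9, 12.8 and 8.72 CPM with estradiol, 2.66, 3.32, 3.74 and 2.73 CPM in complete medium and 5.21, 6.6, 4.73 and 7.51 CPM in starved vehicle. It was higher with estradiol than in complete medium by 1.82 on the log2 scale (SE 0.197, edgeR adjusted p = 2.36e-11), with every estradiol library above every library of both other groups. Here, as at the sites named below for TOB1, SLC38A1 and GPR37L1, starved vehicle was also called higher than complete medium. The site within DCUN1D3, which acts in cullin neddylation (chr16:20881212-20881473), had 14.5, 16.3, 19.1 and 14.1 CPM with estradiol, 8.5, 6.51, 5.16 and 3.3 CPM in complete medium and 4.19, 5.01, 2.36 and 3.58 CPM in starved vehicle. The site 6.11 kb from TOB1, an anti-proliferative gene, had 17.4 ± 1.17 CPM with estradiol, 6.27 ± 2.05 CPM in complete medium and 9.43 ± 3.55 CPM in starved vehicle. Sites 3.17 kb from SLC38A1, a glutamine transporter, and 9.87 kb from GPR37L1, an orphan receptor, were higher by 1.22 and 0.87 on the log2 scale. The gene nearest to the most overshoot sites, counted after the values were seen, was GPR132, a proton-sensing receptor. It had 6 among its 29 tested sites, against 265 among all 156745. Those 6 lay on chromosome 14 and had 4.30 to 12.5 CPM with estradiol, 1.42 to 8.18 CPM in complete medium and 0.739 to 6.91 CPM in starved vehicle. SIAH2 was nearest to 3 overshoot sites, with 10.6 to 26.8 CPM with estradiol against 3.11 to 19.4 CPM in complete medium. SLC7A5, a leucine transporter, was nearest to 2, at 2.97 and 5.99 CPM with estradiol, 1.04 and 2.99 CPM in complete medium.

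**Figure D3:**
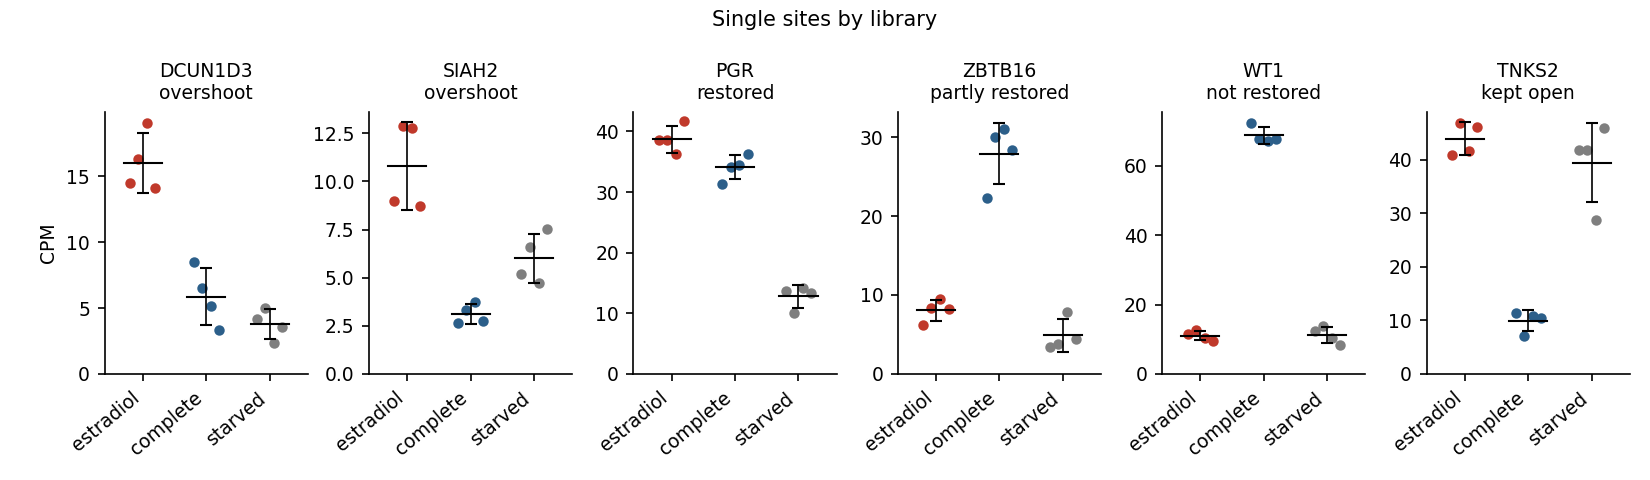
CPM by library at 6 single sites in estradiol-treated, complete-medium and starved vehicle cells; points are libraries, horizontal lines means and error bars SD, and each panel has its own axis. DCUN1D3 and SIAH2 exceed complete medium with estradiol, PGR reaches it, ZBTB16 rises part of the way, WT1 stays at 11 CPM against 68.8 CPM, and TNKS2 stays at 44.0 CPM against 9.92 CPM.

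Estrogen-induced genes had more restored sites near them than any other of the 17 lists, and there too lower sites outnumbered higher ones. Within 50 kb of 30 such genes, 45 of 696 tested sites (6.47%) were higher with estradiol than in complete medium and 90 (12.9%) lower, against 9.39% and 7.25% of all tested sites, and the median log2 fold change was -0.09 against -0.02 overall. Of 214 sites higher in complete medium than in starved vehicle there, 41 were restored, 11 partly restored, and 69 not restored, and 6 of the 696 sites overshot. Restored sites were thus 19.2% and not restored sites 32.2% of the complete-medium sites of the list, against 4.96% and 57.8% over all such sites. GREB1, an early estrogen target and receptor coactivator, was nearest to 7 restored, 3 partly restored and 5 not restored sites. Its restored sites had 1.96 to 22.7 CPM with estradiol and 1.85 to 28.2 CPM in complete medium, and its partly restored sites 10.9 to 33.2 CPM with estradiol against 17.8 to 46.7 CPM in complete medium. The 5 not restored sites had 1.19 to 6.72 CPM with estradiol, 2.53 to 13.2 CPM in complete medium and 0.753 to 3.71 CPM in starved vehicle; their log2 differences between estradiol and starved vehicle were 0.32 to 1.78, none called (smallest edgeR adjusted p = 0.0677). IGFBP4, an insulin-like growth factor binding protein, was nearest to 4 restored sites and no other called one, the strongest (chr17:40448739-40449066) with 37.2 ± 6.88 CPM with estradiol, 42.4 ± 8.17 CPM in complete medium and 9.82 ± 0.894 CPM in starved vehicle. Within 50 kb of it another site (chr17:40423245-40423475) was not restored, at 9.90 ± 0.814 CPM with estradiol and 21.4 ± 2.15 CPM in complete medium. NHERF1, a scaffold protein, had 6 restored and 3 not restored sites within 50 kb. CCND1, cyclin D1, had no restored and 6 not restored sites, and STC2, stanniocalcin, none and 4.

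Luminal identity genes also had more lower than higher sites. Of 544 sites near 18 genes, 30 (5.51%) were higher with estradiol and 75 (13.8%) lower, with a median of -0.16. Of 85 sites there higher in complete medium than in starved vehicle, 12 (14.1%) were restored and 44 (51.8%) not restored. Over all such sites the shares were 4.96% and 57.8%. GATA3, a luminal master regulator, had 12 lower and 1 higher of 38 sites, FOXA1 10 lower and 1 higher of 27, and GRHL2 12 lower and 2 higher of 50. The MLPH site, a melanosome transport gene expressed in luminal cells (chr2:237547370-237547607), had 4.55, 5.24, 5.68 and 5.56 CPM with estradiol, 23.3, 14.7, 20.8 and 21.2 CPM in complete medium and 4.53, 5.37, 3.15 and 5.72 CPM in starved vehicle. Sites near EHF, an ETS factor, and 22.4 kb from FOXA1 were lower than in complete medium by 1.19 and 1.02 on the log2 scale.

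Within 50 kb, genes that respond to glucocorticoids and progestins had the largest share of lower sites of the 17 lists; within 10 kb it was 15.3%, below the replication and cell cycle list (16.7%). Near 14 glucocorticoid- and progestin-responsive genes, 38 of 239 sites (15.9%) were lower with estradiol than in complete medium and 12 (5.02%) higher; of 38 sites higher in complete medium than in starved vehicle, none was restored, 2 were partly restored and 29 (76.3%) not restored, against 57.8% over all such sites; 9 of the 17 lists had no restored site. FKBP5, a cochaperone of steroid receptors, had a site (chr6:35726871-35727283) with 6.14, 4.61, 6.18 and 7.45 CPM with estradiol, 14.7, 18.0, 21.6 and 21.8 CPM in complete medium and 6.46, 7.33, 9.45 and 7.87 CPM in starved vehicle, a log2 difference of -1.64 (SE 0.174, edgeR adjusted p = 2.27e-11). The site 1.39 kb from MT2A, a metallothionein, was lower by 1.15 on the log2 scale. The site named for STAT5A, 14.1 kb from that gene and within STAT3, was higher with estradiol, at 9.85 ± 0.605 CPM against 3.69 ± 0.520 CPM in complete medium. Near 12 androgen-responsive genes 14 of 160 sites (8.75%) were higher and 19 (11.9%) lower. Of their 20 sites higher in complete medium than in starved vehicle, none was restored and 15 (75%) were not restored. The site 11.3 kb from AZGP1, a secreted glycoprotein gene, had 4.58 ± 0.822 CPM with estradiol against 15.3 ± 2.19 CPM in complete medium, while the site 12.6 kb from TMPRSS2, a serine protease, had 16.1 ± 1.85 CPM against 8.29 ± 0.545 CPM. Sites near NDRG1 and PIP differed by 0.91 and -0.53; both calls were lost against a 1.5-fold threshold, NDRG1 also within replicates 1 and 2, and PIP within replicates 3 and 4.

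Near 12 retinoid- and vitamin D-responsive genes, 25 of 254 sites (9.84%) were higher with estradiol than in complete medium and 31 (12.2%) lower. Of 27 sites there higher in complete medium than in starved vehicle, 1 (3.7%) was restored and 20 (74.1%) not restored. Over all such sites the shares were 4.96% and 57.8%. Direction differed by gene: RARB had 10 higher and 2 lower of 53 sites, PLAAT4, a retinoid-induced acyltransferase, had none higher and 7 lower of 21, and CRABP2, a retinoic acid carrier, none higher and 5 lower of 32. The site named for PLAAT4, 12.4 kb from it and within PLAAT2, had 27.6 ± 2.96 CPM with estradiol, 57.0 ± 4.75 CPM in complete medium and 26.7 ± 1.94 CPM in starved vehicle, and the site 40.1 kb from VDR, the vitamin D receptor, had 14.6 ± 0.556, 29.0 ± 1.24 and 15.4 ± 2.08 CPM. CYP24A1, which inactivates vitamin D, held a site that was higher with estradiol, at 13.8 ± 1.69 CPM against 7 ± 1.30 CPM, a call lost against a 1.5-fold threshold. Within 10 kb the order of the shares turned, to 11.8% higher and 9.56% lower. Near 8 aryl hydrocarbon receptor targets 12 of 110 sites (10.9%) were higher and 11 (10%) lower. UGT1A6, a glucuronosyltransferase, held a site with 5.10 ± 0.818 CPM with estradiol against 1.26 ± 1.03 CPM in complete medium, while sites near ALDH3A1, AHRR, the receptor's repressor, and TIPARP had log2 differences of -1.02, -0.52 and -0.92, each lost against a 1.5-fold threshold and those of AHRR and TIPARP also within replicates 3 and 4.

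Within 50 kb, immediate early and YAP/TEAD target genes had shares of higher sites close to that of all tested sites (9.39%). Their shares of lower sites were below the 7.25% of all tested sites, more so for immediate early genes. Of 282 sites near 16 immediate early genes, 25 (8.87%) were higher with estradiol and 14 (4.96%) lower, and of 180 sites near 10 YAP/TEAD targets 18 (10%) were higher and 12 (6.67%) lower. Within 10 kb of immediate early genes 10 of 91 sites (11%) were higher and 2 (2.2%) lower. Within 10 kb the YAP/TEAD shares turned round, to 6.67% higher and 9.52% lower. The site 9.42 kb from FOS, an AP-1 subunit (chr14:75269269-75269547), had 17.1, 19.2, 21.1 and 19.2 CPM with estradiol, 12.5, 7.53, 7.68 and 9.62 CPM in complete medium and 19.7, 20.9, 18.9 and 19.2 CPM in starved vehicle. Sites near MCL1, an anti-apoptotic gene, JUN, and MAFF had log2 excesses of 1.29, 1.09 and 0.72, the first 2 lost within replicates 3 and 4 and the last 2 against a 1.5-fold threshold. The site 0.226 kb from ANKRD1, a YAP target, had 15.6, 15.9, 9.94 and 9.47 CPM with estradiol, 5.52, 5.74, 5.26 and 3.73 CPM in complete medium and 12.6, 11.8, 4.33 and 9.39 CPM in starved vehicle. Sites near PTPN14, CCN1 and AMOTL2 had excesses of 1.41, 1.04 and 0.80, of which the last 2 were lost against a 1.5-fold threshold.

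Within 50 kb, estrogen-repressed genes had the largest share of sites higher with estradiol of the 17 lists, 39 of 288 (13.5%), against 15 lower (5.21%). Of these 288 sites 31 (10.8%) were kept open, against 7.03% of all tested sites. None of the 16 sites there higher in complete medium than in starved vehicle was restored. Within 10 kb their share of higher sites was 13.1%, below blood cell markers (15.8%) and aryl hydrocarbon receptor targets (14.5%). TGFB2, a transforming growth factor, had 9 higher and no lower of 33 sites; the 7 nearest to it that were kept open had 3.27 to 20.5 CPM with estradiol, 1.15 to 11.9 CPM in complete medium and 3.34 to 17.6 CPM in starved vehicle. PDE4D, a phosphodiesterase, had 14 higher and 2 lower of 98, and BLNK, a B cell adaptor gene, 5 higher and none lower of 19. Blood cell marker genes had a similar share, 13 of 100 higher (13%) and 5 lower (5%), with 6 of the 13 near CD3E, whose highest site had 27.2 CPM with estradiol, 15.4 CPM in complete medium and 26.5 CPM in starved vehicle; its part in the result was not tested. Near replication and cell cycle genes 13 of 221 sites (5.88%) were higher and 24 (10.9%) lower. Of 34 sites there higher in complete medium than in starved vehicle, 6 (17.6%) were restored, against 4.96% over all such sites. Of these 6 restored sites, 4 lay within 50 kb of TOP2A, which neighbours IGFBP4 and shares sites with it. Within 10 kb of the genes of this list none was higher, 16.7% were lower and none was restored. For the other lists the shares over all tested sites are again 9.39% higher and 7.25% lower. Sterol and fatty acid synthesis genes had 11 higher (5.47%) and 15 lower (7.46%) of 201, and 4 and 2 of 94 within 10 kb. Growth factor receptor signalling genes had 24 (8.22%) and 22 (7.53%) of 292, and housekeeping genes 5 (2.92%) and 13 (7.6%) of 171. Basal and mesenchymal genes had 14 higher (9.66%) and 12 lower (8.28%) of 145. Interferon-stimulated genes had 9 (8.91%) and 7 (6.93%) of 101, and unfolded protein response genes 6 (5.56%) and 3 (2.78%) of 108.

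**Figure D4:**
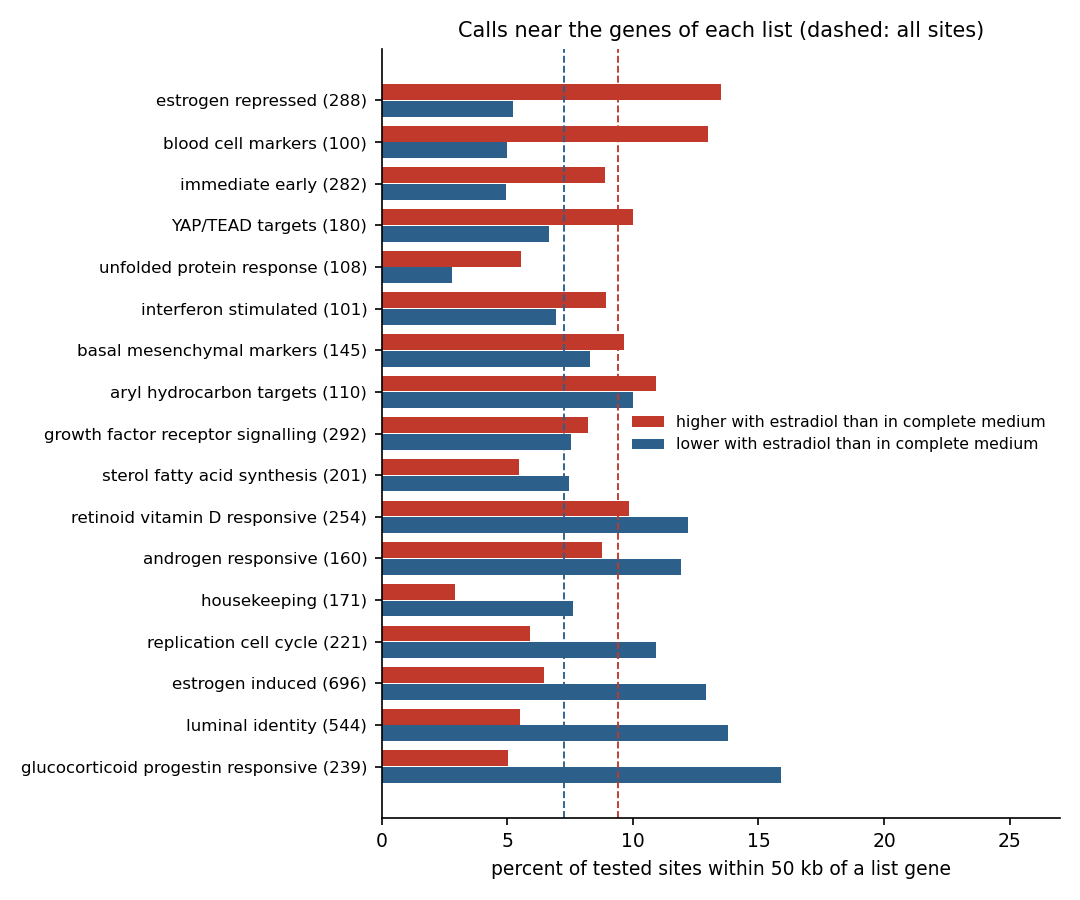
Share of tested sites within 50 kb of the genes of each of 17 lists that were higher (red) or lower (blue) with estradiol than in complete medium, with the number of sites in brackets and dashed lines for all tested sites (9.39% and 7.25%). Glucocorticoid- and progestin-responsive genes have 15.9% lower sites and estrogen-repressed genes 13.5% higher sites.

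Differences were rare at gene starts. Of 12123 sites within 250 bp of a gene start, 1.95% were higher and 2.99% lower with estradiol than in complete medium, while beyond 100 kb 12.9% of 21476 were higher and 5.83% lower. The share of lower sites was highest at 1 to 5 kb, at 9.24%, and the share of higher sites grew with every step in distance. Of the tested sites 11.8% lay within 1 kb of a gene start, against 5.13% of restored, 5.61% of not restored, 3.13% of kept open and 1.6% of overshoot sites. Chromosomes differed as well: chromosome 13 had 12.4% higher and 4.33% lower sites, chromosome 16 had 6.55% higher and 9.86% lower, and chromosome 20 had 7.13% and 10.1%. Chromosome 19 had the smallest share of higher sites, 4.71%, beside 7.42% lower. Gene starts were not used here for chromosome 8.

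**Figure D5:**
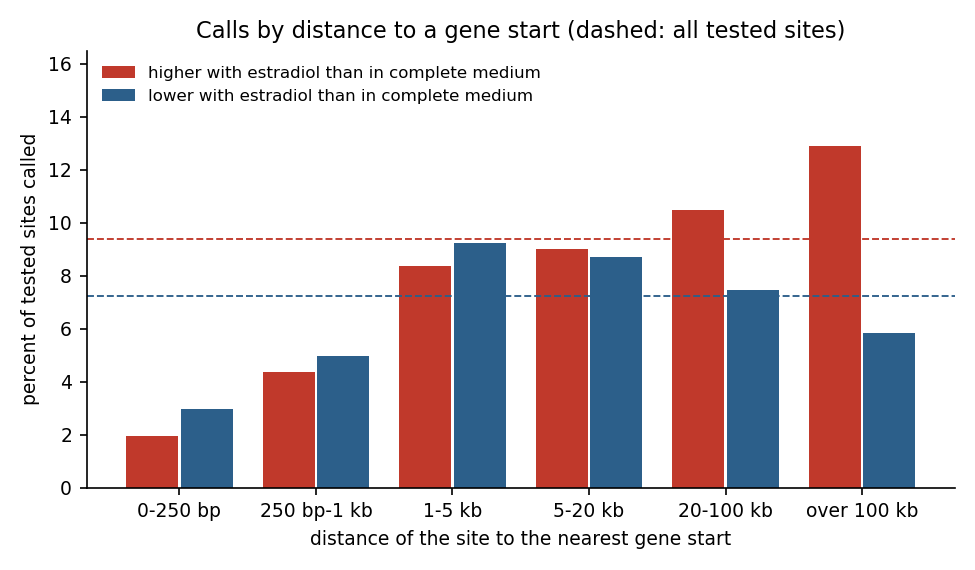
Share of tested sites higher (red) or lower (blue) with estradiol than in complete medium, by distance of the site's middle to the nearest gene start, with dashed lines for all tested sites. Within 250 bp of a gene start 1.95% were higher and 2.99% lower, and beyond 100 kb 12.9% and 5.83%.

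The promoters that did differ were poor in CpG. A tested site covered at least 150 bp of 10104 promoter windows, whose median GC content was 65.7% with 26 CpG dinucleotides per window. The 191 windows with a higher site had 49.3% and 5, the 301 with a lower site 61% and 10, and the 136 kept open 47.2% and 4. Of 12 motifs searched on both strands, the half-site AGGTCA occurred anywhere in 10 of the 14 restored windows (71.4%), within or outside the site, against 9.64% of all 10104, 21.2% of the 184 not restored and 16.2% of the kept open. The 10 are those of AGR3, AMZ1, C5AR2, LINC02130, LOC100126584, LOC124903058, LOC124903459, MICOS10-DT, SRRM2-AS1 and THSD4. The full element, GGTCA and TGACC 3 bases apart, which contains a half-site when an A precedes it, was in 3 of the 10104 windows, 1 of them restored (LINC02130). The TEAD letters GGAATG were in 27.7% of windows with a higher site, 13.3% with a lower site and 10.9% of all, and TGANTCA (AP-1) in 16.8%, 10.3% and 5.44%. The forkhead letters TGTTTAC were in 8.90%, 5.98% and 2.68%. Letters typical of CpG-rich promoters ran the other way: GGGCGG (SP1) was in 23% of windows with a higher site, 55.1% with a lower site and 69.5% of all, CCGGAAG (ETS) in 5.76%, 9.97% and 17.9%, GCGC and TGCGC 1 base apart (NRF1) in 1.57%, 3.65% and 10.3%, and CACGTG (E-box) in 3.14%, 5.98% and 9.90%. CCAAT (NF-Y) was in 35.6%, 39.5% and 38%, TGACGTCA (CRE) in 3.14%, 1.66% and 3.31%, and GNACA and TGTNC 3 bases apart (progestin or glucocorticoid element) in 0.524%, 0.332% and 0.247%. A match describes letters only, and windows differ in GC content, so a share of matches moves with base composition as well.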

How the data were processed

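ATAC-seq was run on 24 T47D libraries, 4 in each of 6 groups taken from the titles. The authors deposited raw counts per peak for 1 common peak set, with no normalization. Per the submitters' processing notes, cutadapt 1.8.1, Bowtie2 2.4.4 and SAMtools 1.9 were used on hg38; for the peak caller, counting tool, duplicate handling and Tn5 shift: not given in the sources used here. Without them, peak edges and doubled fragments may affect the levels.

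All libraries entered 1 edgeR 4.0.16 fit in R 4.3.3 (filterByExpr with minimum count 10 and minimum total 15, TMM, glmQLFit with robust=TRUE, two-sided quasi-likelihood F-test, Benjamini-Hochberg over all tested sites). Standard errors were approximated by dividing the absolute log2 fold change by the square root of the F statistic, and 95% intervals rest on them. The pipeline was checked on simulated data. Counting error grows at low counts, and totals per library are given above.

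Positions are as deposited; whether starts count from 0 or 1 is not given in the sources used here. Genes and intervals come from RefSeq (GRCh38.p14); a list's sites lie within 50 kb of the gene interval (10 kb as an alternative), and 2 list genes matched through a synonym. The members, classes, lists and rules were chosen with earlier results of these data known. Sites named are above the median abundance, lie within 50 kb of a protein-coding gene, 1 per gene, with the 4 libraries of one group on 1 side of the other 4 in the contrast that names them: up to 10 higher and 10 lower by fold change, and up to 5 per class by p-value (of estradiol against starved vehicle for restored and closed sites, against complete medium otherwise). For each of the first 8 lists, 2 to 4 genes with the smallest p-value of their best site are named whether called or not. Alternatives were other scalings (RLE, total counts, loess offsets), filters, sample sets, the replicate number as a block, the set of replicates as a term, DESeq2 1.42.0, an older edgeR fit, a 1.5-fold threshold (glmTreat) and an adjusted p under 0.01. Same-numbered estradiol and starved vehicle libraries deviated together (correlations of deviations from group means 0.198, 0.235, 0.108 and 0.11), and complete-medium and starved vehicle libraries less so (0.158, 0.111, 0.013 and 0.086), so values with the number as a block are given where they move a count by over 1.5 times. Not every estradiol library correlated best with the starved vehicle library of its own number. Estradiol replicate 3 correlated more with starved vehicle replicate 4 (0.136), and estradiol replicate 4 more with starved vehicle replicate 3 (0.159). Libraries of a group differed by more than counting error (chi-square divided by degrees of freedom, 1.735 to 2.61).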

Additional observations from a re-analysis of the deposited data

Results flagged for a closer look

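Of 285 groups of 4 libraries examined, the values of 12 had 1 library apart from the other 3; 1 in 20 groups would be 14.2. With estradiol, replicate 4 had 3.66 CPM at the HSD11B1 site against 7.44 to 7.54 CPM in the others, replicate 3 had 3.17 CPM at the RARB site against 5.18 to 5.45 CPM, and replicate 1 had 10.1 CPM at the MCL1 site against 4.4 to 4.76 CPM. In complete medium, replicate 4 had 0.144 CPM at the SLC41A2 site against 0.744 to 0.809 CPM, and replicate 2 had 2.55 CPM at the ELOVL5 site against 1.58 to 1.72 CPM. Replicate 1 had 6.27 CPM at the PDE4A site against 4.59 to 4.85 CPM, and 72.5 CPM at the WT1 site against 67.1 to 67.9 CPM. In starved vehicle, replicate 3, the shallow library, had 4.73 CPM at the HSD11B1 site against 6.68 to 6.96 CPM, and 1.97 CPM at the CDH1 site against 0.566 to 0.733 CPM. Starved vehicle replicate 2 had 0.855 CPM at the ATXN7L1 site against 1.93 to 2.15 CPM. Starved vehicle replicate 1 had 12.9 CPM at the NDST1 site against 15.4 to 15.8 CPM, and 29.1 CPM at the AMOTL2 site against 24 to 24.8 CPM.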

How the results depend on the processing

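Among named sites called between estradiol and complete medium, none changed sign under the alternatives run. At named sites not called there, such as restored and closed ones, a change of sign counted only where an alternative called the site. Within 10 kb the order of higher and lower shares turned for the retinoid and vitamin D, YAP/TEAD and sterol lists. The median over all sites was 0.01 with RLE and DESeq2, against -0.02. Of the 14721 sites higher and 11364 lower with estradiol than in complete medium, a 1.5-fold threshold gave 3760 and 1961, an adjusted p under 0.01 gave 8783 and 5918, replicates 3 and 4 alone 6631 and 4015, and the fit without complete-medium replicates 3 and 4 gave 8175 and 6707. Shared with the calls from all libraries were 6074 and 3640 for replicates 3 and 4 alone, and 7646 and 5999 without complete-medium replicates 3 and 4. Sites above the median abundance gave 9457 higher, DESeq2 7109 lower, and replicates 1 and 2 alone 6938 lower. Calls were 56.4% higher in the edgeR fit, 65.7% against 1.5-fold, 60.8% with RLE and 60.4% with DESeq2. Without complete-medium replicates 3 and 4 there were 4439 not restored, 7 closed, 2 partly closed, 6212 kept open and 142 overshoot sites, and 9531 sites lower in complete medium than in starved vehicle. DESeq2 gave 4339 not restored, 2 closed, 0 partly closed, 138 overshoot and 9 undershoot sites, 13 lowered by estradiol against starved vehicle, and a recovered share of 0.274. An interval limit of 1.5-fold left 310 restored and 3 closed sites, and loess offsets gave 12 undershoot sites. The set of replicates as a term gave 28 closed, 16 partly closed, 404 overshoot and 18 undershoot sites and 88 lowered. The cause of these changes was not tested.

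Same-numbered libraries were not paired by the rule used (every correlation over 0.1) between estradiol and complete medium, where the correlations of same-numbered estradiol and complete-medium deviations from the group means were 0.146, 0.18, 0.106 and 0.099. Each estradiol library correlated best with its own number. With a replicate block 16653 sites were higher and 13255 lower, with 25 closed, 12 partly closed and 14 undershoot sites and 74 lowered against starved vehicle.

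Leaving out 1 library at a time gave 11449 to 15282 higher and 8676 to 11764 lower sites, 481 to 606 restored, 151 to 205 partly restored, 5732 to 7001 not restored, 4 to 21 closed, 1 to 7 partly closed, 8662 to 11217 kept open, 180 to 271 overshoot and 2 to 9 undershoot. Complete medium was higher than starved vehicle at 9563 to 12640 sites and lower at 11580 to 15774, and estradiol raised 964 to 1269 sites and lowered 16 to 54. The recovered share was 0.233 to 0.334 at complete-higher and 0.096 to 0.174 at complete-lower sites. Closed sites numbered 5 without starved vehicle replicate 2 or estradiol replicate 1, 21 without estradiol replicate 2, 4 without estradiol replicate 3 and 6 without estradiol replicate 4. Depth limits sites at low counts, among the groups compared most in starved vehicle replicate 3.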
